A study of Pan troglodytes with 38 samples.

Results

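Genes that start, carry out or hold back plasminogen activation and clotting were followed across chimpanzee hearts: PLAU, PLAT, PLAUR, SERPINE2, F3, TFPI, TFPI2, THBD and PROCR. They were chosen by symbol, with earlier results of these data known, and all 9 were found among the 31373 genes of the chimpanzee count table. RNA came from post-mortem heart samples of 38 chimpanzees (Pan troglodytes) that had been stored frozen, with 1 library per animal. The labels put all 38 in 1 group and name no treatment, but by the study's own account some of the animals had been exposed to hepatitis B or C virus and some were close relatives, neither of which was part of the fits below. By the sample table there were 22 females and 16 males, with ages at death of 10 to 57 years for the 34 animals that have one, and RNA was extracted in 2018 for 21 animals and in an earlier year for 17. The centre of origin was Yerkes for 21 animals, with both extraction years among them, and SNPRC for 13. It was New Iberia for 2, and MD Anderson and the Little Rock Zoo for 1 each. Extraction year also separates earlier published libraries from new ones, so these cannot be told apart. Libraries were made from polyA RNA with a kit that does not keep strand.

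Plasmin, the protease that dissolves fibrin, is made from plasminogen by urokinase and by tissue plasminogen activator. Urokinase acts mainly at the cell surface on its own receptor, while the tissue activator works best on fibrin, and serpins such as SERPINE2 inhibit both. Clotting starts when tissue factor meets factor VII, and it is held back by tissue factor pathway inhibitor and by the thrombomodulin and protein C system of the vessel wall. Cardiac muscle is known for its tissue factor, whereas the anticoagulant members are best known from endothelium.

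The gene table held 43892814 to 132478050 counts per library. Levels are given in CPM (counts-per-million), the gene's count relative to the library's total over exons that chimpanzee and human share, and those totals ran from 14408012 to 81603350 counts. Mitochondrial genes took 17.2% to 60.1% of a library's gene counts. The smallest count of any of the 9 genes in any library was 34, for F3, which has a counting error of 17.1%. Because the count table has no gene lengths, levels are compared between animals, and where the most abundant genes of a list are named, their CPM is not corrected for length.

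Heart muscle transcripts were abundant in every library. The summed level of 8 cardiomyocyte markers had a median of 84404 CPM, and its most abundant gene was MYH7, a myosin heavy chain. A few libraries stood apart. Little_R had the lowest cardiomyocyte sum, 11417 CPM, followed by 537 with 24952 CPM and 495 with 26036 CPM. Animal 529 was low as well (45616 CPM, rank 35 of 38) and had the highest sum of early response genes, 3416 CPM against a median of 178 CPM. Animal 4x0025 ranked 32 for cardiomyocyte markers (50968 CPM). Of all 38 libraries, those of 529, Little_R, 537, 495 and 558 were among the 7 with the smallest orthologous exon totals (14408012 to 26120173 counts) and the 6 with the largest mitochondrial shares (45.3% to 60.1%, against a median of 30.4%), and the part of this in their high levels was not tested.

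PLAU encodes urokinase (ENSPTRG00000002646). Its level was 19.8 CPM at the lowest (476), 39.1 CPM at the median and 238 CPM at the highest (529), with a mean of 51.5 ± 41.1 CPM (SD, n = 38). Little_R (129 CPM) and 537 (121 CPM) followed 529 at a distance. Without 529 and 4x0025 the mean was 46.0 ± 27.5 CPM (SD, n = 36). PLAT encodes tissue plasminogen activator (ENSPTRG00000020201), and it ran from 4.87 CPM (4X0339) through a median of 12.6 CPM to 61.7 CPM in 529. The next animals were Little_R at 38.9 CPM and 495 at 30.9 CPM, so both activators were highest in the same animal.

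PLAUR, the receptor that holds urokinase on the cell surface (ENSPTRG00000011091), had a lowest level of 1.98 CPM (503), a median of 5.45 CPM and a highest level of 66.2 CPM (529). Little_R had 61.3 CPM and the third animal, 4x0025, 21.01 CPM. Relative to the gene table total without mitochondrial genes, 529 had 60.5 CPM and Little_R 38.9 CPM. The top 2 animals thus lay clear of the other 36. SERPINE2, a serpin that inhibits thrombin, urokinase and the tissue activator (ENSPTRG00000012982), spanned the widest range, from 7.18 CPM (503) through a median of 32.4 CPM to 630 CPM in 537. Animal 558 followed at 229 CPM and 4x523 at 211 CPM. Its mean of 69.5 ± 108 CPM (SD, n = 38) was 52.3 ± 53.8 CPM (SD, n = 36) without 537 and Little_R. Animal 529, which led the activators and the receptor, ranked 9 for SERPINE2 with 87.1 CPM.

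F3 encodes tissue factor (ENSPTRG00000000977). It was lowest in Little_R at 2.36 CPM, had a median of 5.78 CPM and was highest in 529 at 34.3 CPM. The next animal, 4x0430, had 18.7 CPM. Little_R was among the 5 highest animals for 7 of the other 8 genes and was the lowest of all 38 for F3. TFPI, the inhibitor of the tissue factor and factor VII complex (ENSPTRG00000012723), ranged from 4.62 CPM (476) through 11.4 CPM to 58.3 CPM, again in 529, followed by 537 at 39.9 CPM. In the RefSeq annotation of another chimpanzee assembly, NHGRI_mPanTro3-v2.0_pri, TFPI overlaps LOC107973861, and reads of overlapping genes cannot be told apart without strand, so the values of TFPI are uncertain to that extent. The other 8 genes overlap no gene there, and none of the 9 lies next to another.

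TFPI2 encodes a related inhibitor that acts on plasmin and other proteases (ENSPTRG00000019405). It ran from 3.82 CPM (554) through a median of 10.2 CPM to 189 CPM in 570, with 529 the second highest at 82.8 CPM. The third animal, 4x0025, had 24.04 CPM. Its mean was 17.7 ± 31.2 CPM (SD, n = 38), with 570 and 529 far above the other 36 animals.

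THBD encodes thrombomodulin, which turns thrombin toward protein C (ENSPTRG00000013317). It ranged from 2.47 CPM (4X0354) through 14.3 CPM to 76.2 CPM in Little_R, with 529 next at 68.5 CPM and 495 the third at 38.2 CPM. This order depended on the divisor: relative to the gene table total without mitochondrial genes, 529 was the highest at 62.7 CPM and Little_R had 48.4 CPM. PROCR, the receptor that presents protein C to that complex (ENSPTRG00000013431), ranged from 3.74 CPM (476) through 11 CPM to 96.1 CPM in 537. Little_R (69.8 CPM) and 558 (54.4 CPM) followed, and 529 was the fifth at 32.7 CPM. Its mean of 18.5 ± 19.5 CPM (SD, n = 38) was 14.9 ± 11.9 CPM (SD, n = 36) without 537 and Little_R. Little_R, 495 and 529 were among the 5 highest animals for both genes. With the gene table total without mitochondrial genes as divisor, the highest animal of the other 8 genes stayed the same, but the second or the third changed for PLAU, PLAT, SERPINE2 and PROCR.

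**Figure D1:**
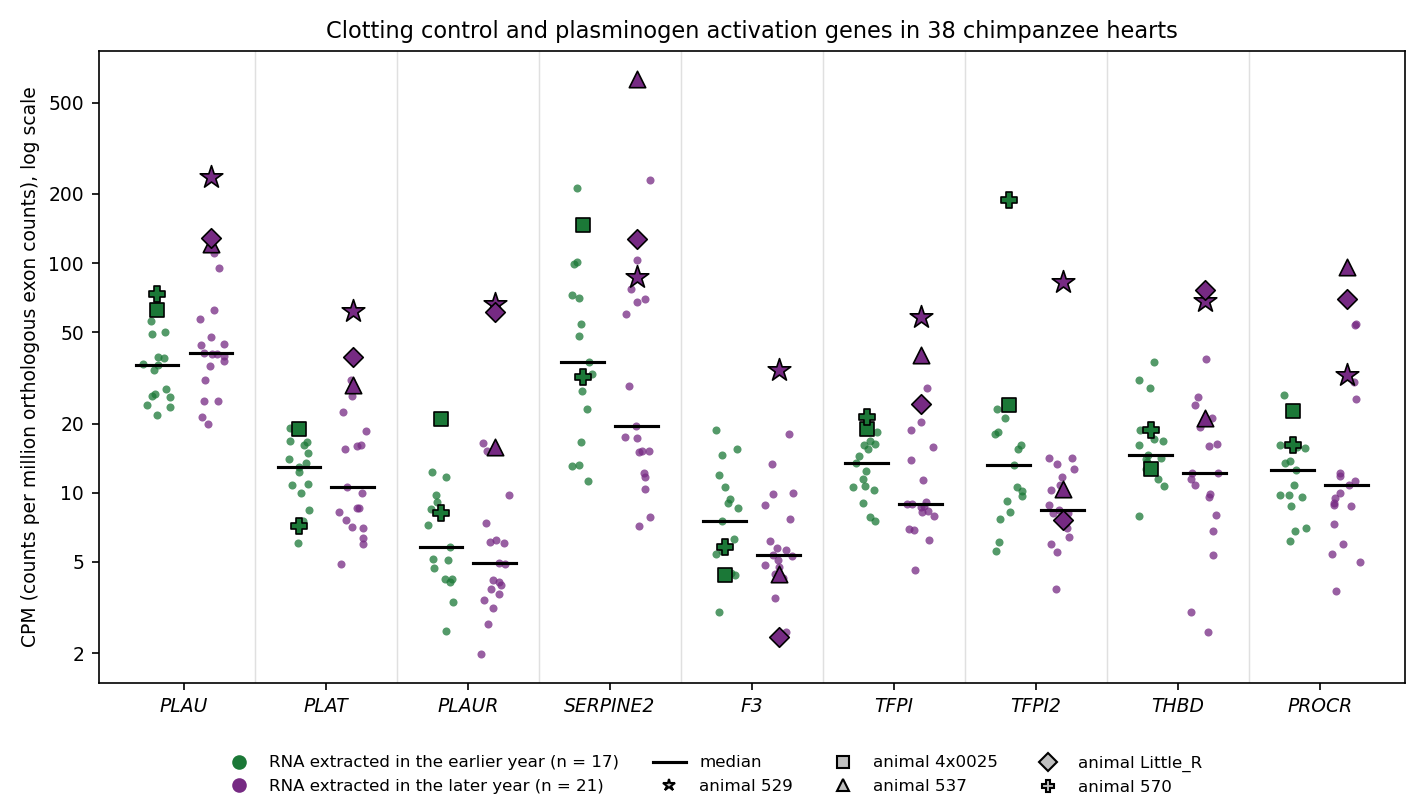
Level of each gene in each of the 38 animals, in CPM on a log axis, with animals of the earlier extraction year (n = 17) and the later one (n = 21) side by side, black lines at the medians and 5 animals marked by shape. Animal 529 is the highest for PLAU, PLAT, PLAUR, F3 and TFPI, while 537 is the highest for SERPINE2 and PROCR, 570 for TFPI2 and Little_R for THBD.

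One animal led most of the list. Animal 529 had the highest level of 5 of the 9 genes and was among the top 3 for 7 of them, whereas it was the highest animal for 5.67% of the 13121 genes that reached 6 CPM in at least 1 animal and among the top 3 for 14.9% of them. Because the 9 genes were chosen with earlier results of these data known, this contrast is a description and was not tested. Animal 537 was highest for 2 of the 9 genes and for 13.3% of all those genes, and Little_R for 1 of the 9 and 12.9% of all. Over the 9 genes, the median rank was 1 for 529, 2 for Little_R, 4 for both 537 and 495, and 5 for 558. At the other end, 503 had a median rank of 35 and 554 of 34. RNA of all these animals was extracted in the later year, and the best median rank of an animal of the earlier year was 8, in 4x0025.

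Variability between animals was high for the list as a whole. Dispersion here is the natural logarithm of a gene's negative binomial overdispersion minus the value of a trend through all genes at the same mean level, so 0 lies on the trend. All 9 genes passed the expression filter, and all 9 lay above 0, with a median of 1.28, while 44.4% of the 13121 genes lay above 0 and their median was -0.130. The list was chosen with earlier results of these data known. The study had already named fibrinolysis among the functions of its highly variable genes, so this contrast is a description and not independent support. SERPINE2 was the most variable at 2.43 ± 0.329 (jackknife SE over 38 animals), rank 126 of all genes. F3 was the least variable of the 9 at 0.503 ± 0.373, rank 3486. TFPI2 (1.72 ± 0.873), PROCR (1.497 ± 0.326), PLAUR (1.37 ± 0.511), PLAU (1.28 ± 0.393) and THBD (1.19 ± 0.329) lay between them, as did PLAT (0.811 ± 0.353) and TFPI (0.672 ± 0.395). Neighbours in this order overlapped within 1 SE, SERPINE2 and TFPI2 included.

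Part of this spread came from named animals. With the trend kept, leaving out 570 lowered the dispersion of TFPI2 to 0.853, and leaving out 529 lowered F3 to 0.156, TFPI to 0.313 and PLAT to 0.488. SERPINE2 changed little and was 2.11 at the lowest, without 537. Within the 21 animals of the later year the median of the 9 genes was 1.39, and within the 17 of the earlier year it was 0.671, with 8 of 9 above 0 and TFPI at -0.0427. SERPINE2 was highly variable in both years, at 2.51 in the earlier and 2.55 in the later one. TFPI2 was at 2.57 in the earlier year, which holds 570, and at 1.07 in the later year.

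**Figure D2:**
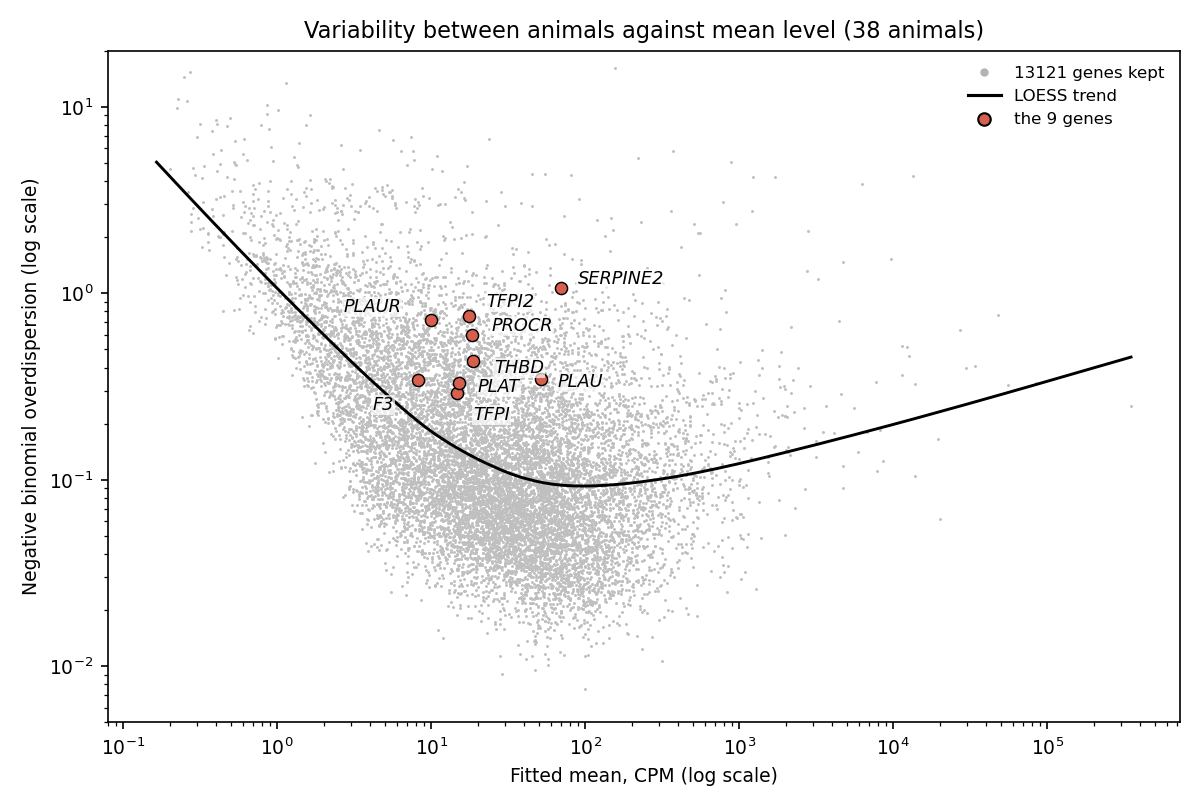
Negative binomial overdispersion of each of 13121 genes against its fitted mean level in CPM, both on log axes, over 38 animals; the line is the LOESS trend and the red points are the 9 genes. All 9 points lie above the trend, SERPINE2 by 2.43 and F3 by 0.503 on the natural log scale.

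The first comparison asked whether levels differed between extraction years, which hold different animals as well as earlier published and new libraries. In the earlier and the later year the median RIN was 6.2 and 5.4, and the median age 36 and 27 years where known. No gene of the list differed between years by the edgeR quasi-likelihood test at an adjusted p under 0.05 (0 of 9), although 2536 of 15790 genes did (16.1%). At an unadjusted p under 0.05 the count was 2 of 9, PLAU and TFPI2, against 4867 of all genes (30.8%), and DESeq2 also called 0, with no adjusted p for TFPI2. The levels of all 9 genes overlapped widely between years. For PLAU the animals of the earlier year ran from 21.7 through a median of 35.97 to 73.6 CPM and those of the later year from 19.8 through 40.5 to 238 CPM, with 15 of 21 above the earlier median. The log2 fold change, later minus earlier year, was 0.56 ± 0.24 (SE), with an adjusted p of 0.0996 by edgeR.

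TFPI2 was the gene whose call between years depended on single animals. Its levels ran from 5.56 through a median of 13.1 to 189 CPM in the earlier year and from 3.82 through 8.42 to 82.8 CPM in the later one, with 17 of 21 animals of the later year below the earlier median. The log2 fold change was -0.95 ± 0.41 (SE), with an adjusted p of 0.107 by edgeR over all 38 animals. Without 529, the highest animal of the later year, it was -1.26 ± 0.33 with an adjusted p of 0.00705 by edgeR, and 1 of the 9 genes then passed, where 15.4% of all genes passed and 4.13% were lower in the later year. Without 570, the highest animal of the earlier year, it was -0.24 ± 0.27 with an adjusted p of 0.573 by edgeR. With both left out, an alternative chosen after seeing the data, TFPI2 was lower in the later year by edgeR at an adjusted p of 0.0218 and a log2 fold change of -0.58 ± 0.18, where 15.5% of genes passed and 3.67% were lower. Over the 9 other settings tried, its adjusted p ran from 0.00705 to 0.338, and over each animal left out in turn from 0.00705 to 0.573.

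The other 7 genes had log2 fold changes between -0.16 ± 0.30 (F3) and 0.61 ± 0.31 (PROCR), with adjusted p-values of 0.180 or more by edgeR. For TFPI and THBD the sign turned without 529, from 0.04 to -0.11 and from 0.14 to -0.03. For THBD it also turned without Little_R, to -0.07, and for SERPINE2 without 537, from 0.11 to -0.28. No direction is given for TFPI, THBD and SERPINE2. The log2 fold change of F3 ran from -0.39 without 529 to -0.04 without 4x0430, and that of PLAUR was 0.15 without Little_R. What differed in the ranges was their width: the later year reached further at both ends for all 7. For PLAT, 6 of its 21 animals lay above the highest of the earlier year and 2 below the lowest, and for PROCR 6 lay above and 4 below. For TFPI it was 4 and 4, for THBD 3 and 4, for SERPINE2 2 and 3, for PLAUR 2 and 1, and for F3 1 and 2. The median level was lower in the later year for all 7 genes, although the log2 fold change was above 0 for 6 of them. The median of F3 was 7.55 CPM in the earlier year and 5.36 CPM in the later one, and that of SERPINE2 was 37.05 CPM and 19.5 CPM.

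**Figure D3:**
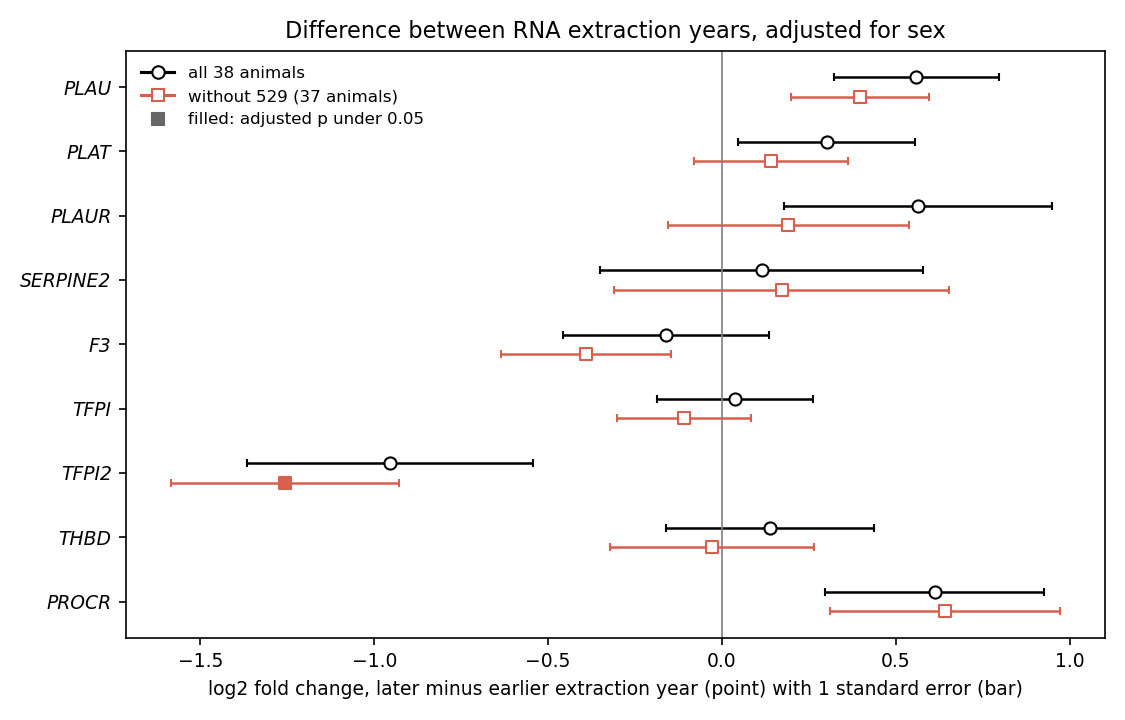
Difference in level between extraction years for the 9 genes, as log2 fold change (later minus earlier, adjusted for sex) with bars of 1 standard error, for all 38 animals and for the 37 without animal 529. Only TFPI2 without 529 passes an adjusted p under 0.05; TFPI and THBD change sign between both fits.

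Sex made no called difference to any of the 9 genes. By edgeR 0 of 9 passed at an adjusted p under 0.05, none had an unadjusted p under 0.05, and DESeq2 called 0, while 34 of 15790 genes passed by edgeR (0.215%). SERPINE2 had the largest difference, with means of 96.2 ± 151 CPM in 16 males and 50.02 ± 56.4 CPM in 22 females (SD), a log2 fold change, male minus female, of 0.84 ± 0.46 (SE) and an adjusted p of 0.651 by edgeR. The ranges of both sexes overlapped, and without 537, a male, the log2 fold change was 0.26.

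RNA integrity and age gave no called gene by edgeR over all animals that have a value. For the integrity number RIN, which ran from 2.5 to 8.4, 0 of 16462 genes passed (0%), against 2276 genes at an unadjusted p under 0.05 and 168 called by DESeq2. Of the 9 genes 0 passed by either tool, and 2 had an unadjusted p under 0.05. THBD had a slope of 0.28 ± 0.10 log2 units per RIN unit (SE, adjusted p of 0.189 by edgeR and 0.0742 by DESeq2), and PROCR 0.21 ± 0.10 (adjusted p of 0.314 by edgeR). For age, in the 34 animals that have one, 0 of 16309 genes passed (0%), against 1209 at an unadjusted p under 0.05 and 2 by DESeq2. None of the 9 genes passed by either tool or had an unadjusted p under 0.05, and their slopes lay between -0.02 and 0.01 log2 units per year. Animals 529, Little_R and 495, which are 3 of the 5 with the best median ranks, have no age and were not in that fit, nor was 554_2.

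Over all 38 animals, the genes of the list tended to be high in the same animals, but this was far weaker in the earlier extraction year, as given below. Over the 36 pairs, Spearman's rho of log2 CPM across 38 animals had a median of 0.436 ± 0.0884 (jackknife SE), with 29 pairs above 0 and 15 above 0.5 (41.7%), and the median of Pearson's r was 0.499. The median rho of the 9 genes with all other genes was 0.122, and 11.4% of those values were above 0.5. The animals are points that share their library and its depth, so these values are descriptions. By rho the closest pair was PLAUR and TFPI (rho 0.784, r 0.787). PLAUR and PROCR (rho 0.769, r 0.783) and TFPI and PROCR (rho 0.763, r 0.778) followed. By r, PLAU with TFPI (0.828) and PLAU with PLAUR (0.797) were closer than these. With the TMM total as divisor, PLAUR and PROCR (rho 0.730) came before PLAUR and TFPI (rho 0.696). Both activators, PLAU and PLAT, were less alike, with a rho of 0.259 (r 0.561).

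F3 differed from the rest. Its rho was negative with 7 of the other 8 genes, the lowest being -0.448 with PROCR (r -0.333) and -0.354 with PLAUR (r -0.112), and it was 0.0323 with TFPI2. These values moved in both directions with the animals left out. Without 529, high in F3 and in most of the others, the rho of F3 with PROCR was -0.542 and with PLAUR -0.467. Without 537 and Little_R, the latter the lowest in F3, it was -0.366 with PROCR, -0.275 with PLAUR and 0.0955 with PLAT, and r was above 0 with PLAUR, TFPI, THBD, PLAU, TFPI2 and PLAT (0.0725 to 0.295).

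Likeness differed between extraction years. In the 21 animals of the later year the median rho of the 36 pairs was 0.612, with 21 pairs above 0.5, where 22.3% of the values of rho with other genes were. In the 17 animals of the earlier year it was 0.163, close to the median of 0.125 with all other genes (0.130 in the later year). There 2 pairs were above 0.5, PLAU with TFPI (0.699) and TFPI with TFPI2 (0.689), a smaller share than the 10.3% of the values with other genes. The pairs named as closest by rho over all animals were far less alike in the earlier year. PLAUR and TFPI were at 0.838 in the later and 0.382 in the earlier year. PLAUR and PROCR were at 0.886 and 0.488, and TFPI and PROCR at 0.871 and 0.297. PLAU and TFPI, the closest pair by r over all animals, were at a rho of 0.838 and 0.699. PLAU and PLAT had a rho of 0.587 in the later year and -0.221 in the earlier one. The difference between years was not tested. F3 and PROCR were at -0.497 in the later year and -0.498 in the earlier one, whereas F3 and PLAT were at -0.214 and 0.377.

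**Figure D4:**
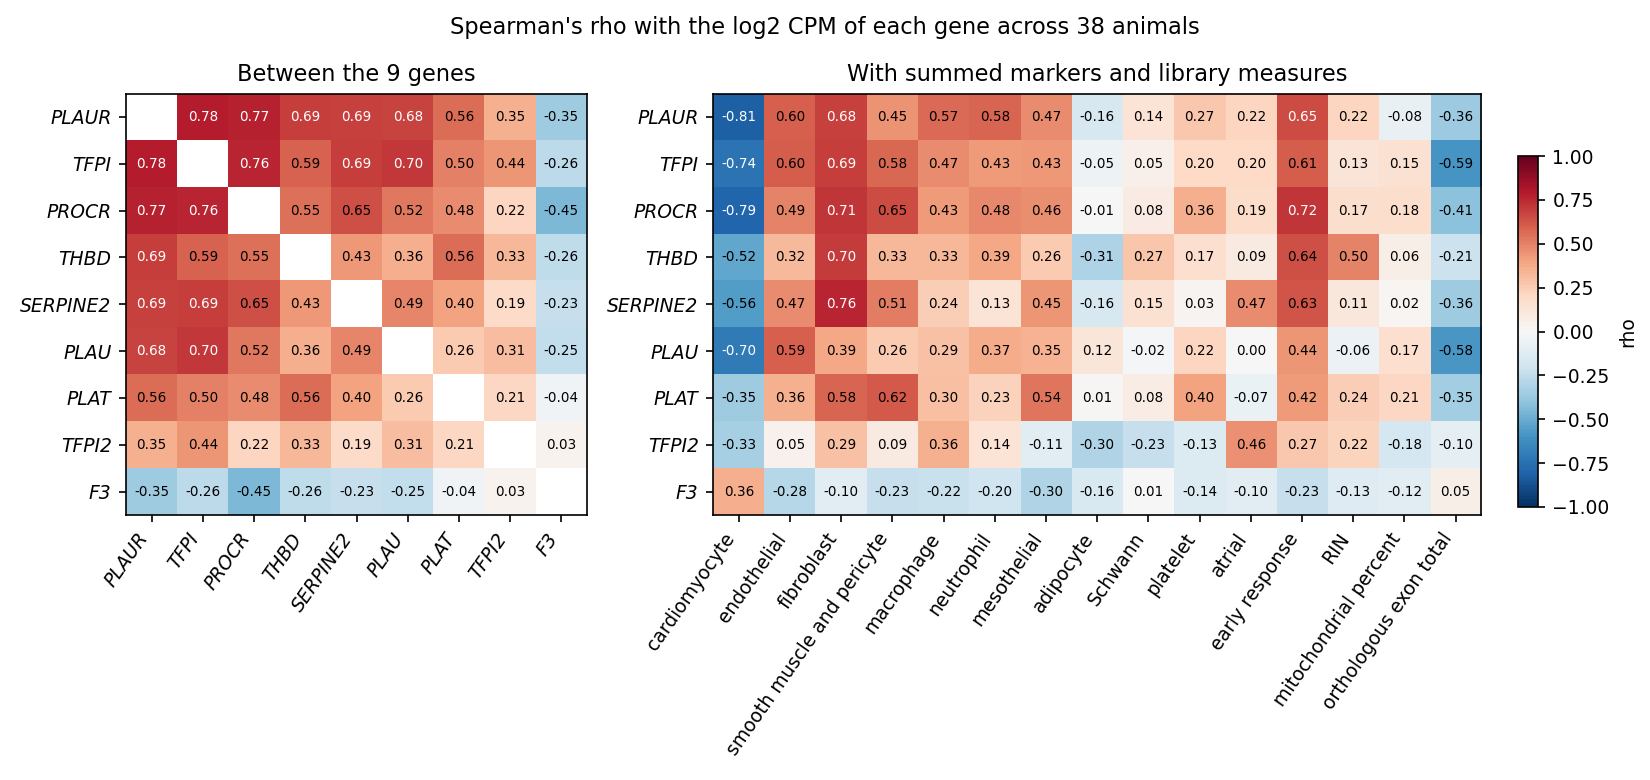
Spearman's rho across 38 animals between the log2 CPM of the 9 genes (left) and between each gene and the summed CPM of 12 marker lists, RIN, the mitochondrial share of counts and the orthologous exon total (right); red is positive and blue negative. PLAUR, TFPI and PROCR are the closest trio over all 38 animals, F3 is negative with 7 of 8 genes, and the cardiomyocyte column is negative for every gene but F3.

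Among 12496 other named genes, the most similar patterns were as follows. PLAU was most like CDK2 (rho 0.850, r 0.840), a cell cycle kinase, and SEMA3F (rho 0.844), a secreted semaphorin. PLAT was most like AMIGO2 (0.766), an adhesion protein, and PTGS1 (0.716), a cyclooxygenase. PLAUR was most like SERP1 (0.9002), a protein of the endoplasmic reticulum, and ITGA5 (0.879), part of the fibronectin receptor. For SERPINE2 both genes were of the matrix: FN1, fibronectin (rho 0.9098, r 0.913), and COL5A2, a fibrillar collagen (0.891). Within years FN1 was at 0.895 in the later and 0.941 in the earlier one, and COL5A2 at 0.932 and 0.836. CDK2 was at 0.8597 and 0.814 with PLAU, and SERP1 at 0.9597 and 0.7402 with PLAUR, while AMIGO2 was at 0.9 and 0.453 with PLAT.

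F3 had no close partner, since its most similar genes were LSMEM2 (0.592) and SLC44A3 (0.589). TFPI was most like PAPSS2 (0.889), an enzyme of sulfate donor synthesis, and TMOD3 (0.885), which caps actin filaments. TFPI2 was most like ATP7A, a copper transporter, with a rho of 0.6997 but an r of 0.460, and SPAG1 (0.675). Among the genes most like THBD was EGFR (0.798), a growth factor receptor, at 0.816 in the later and 0.814 in the earlier year. PROCR was most like PXDC1 (rho 0.866, r 0.916) and WBP1L (0.844). For the first gene named beside each of the other 4, the rho in the later and the earlier year was 0.605 and 0.559 for F3, 0.797 and 0.809 for TFPI, 0.568 and 0.684 for TFPI2, and 0.897 and 0.718 for PROCR.

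Marker genes of cell types moved with the list. The cardiomyocyte sum was lower where PLAUR (rho -0.814), PROCR (-0.793), TFPI (-0.737) and PLAU (-0.704) were high, and the rho was weaker for SERPINE2 (-0.556), THBD (-0.517), PLAT (-0.353) and TFPI2 (-0.332). The strongest of these held within each extraction year, with PLAUR at -0.830 in the later and -0.743 in the earlier year and PROCR at -0.861 and -0.669. F3 alone had a positive rho with heart muscle markers, 0.361, which was 0.374 in the later year and 0.348 in the earlier one. This rho depended on the animals included. It was 0.431 without 529 and 4x0025, but 0.266 without 537 and Little_R, the animals with the lowest cardiomyocyte sums. Pearson's r moved likewise, from 0.310 over all 38 animals to 0.430 and 0.101. Little_R was also the lowest animal for F3. In bulk tissue, fewer cells of a type and less RNA per cell cannot be told apart. The part of these markers, and of those that follow, in the results above was not tested.

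Fibroblast markers ran the other way. All 8 were found, DCN, a small proteoglycan of the matrix, was the most abundant, and their sum had a median of 1845 CPM, with the highest sums in 537 (11455 CPM), Little_R (11193 CPM) and 529 (7062 CPM). It was most like SERPINE2 (rho 0.762), PROCR (0.714), THBD (0.701), TFPI (0.691), PLAUR (0.684) and PLAT (0.583), and was less like PLAU (0.386), TFPI2 (0.2899) and F3 (-0.104). Within the later year the rho was higher for each gene but F3, such as 0.836 for PLAT and 0.831 for SERPINE2. Within the earlier year SERPINE2 stayed at 0.699 and PROCR at 0.569, while PLAUR was at 0.338, TFPI at 0.270, THBD at 0.265, PLAU at 0.0784 and PLAT at -0.123.

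Endothelial markers, whose most abundant gene was VWF, had a median sum of 1447 CPM and were highest in 537 (5090 CPM). VWF also counts among the coagulation genes below. Their rho was 0.602 with TFPI, 0.6002 with PLAUR, 0.594 with PLAU, 0.494 with PROCR, 0.474 with SERPINE2, 0.356 with PLAT, 0.321 with THBD, 0.0465 with TFPI2 and -0.283 with F3. For TFPI it was 0.666 in the later and 0.348 in the earlier year, and for PROCR 0.664 and 0.0049. Animal 529 ranked 27 of 38 for this sum (1248 CPM), and in it 4 of the 8 markers were above their medians (CDH5, TIE1, EGFL7 and EMCN) and 4 below (PECAM1, TEK, ERG and VWF, whose 353.6 CPM was the lowest of all animals).

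Early response genes, of which 9 of 10 were found and JUNB was the most abundant, were highest in 529 and in Little_R (2946 CPM). Their rho was 0.716 with PROCR (0.6896 in the later and 0.659 in the earlier year), 0.651 with PLAUR (0.7 and 0.520), 0.644 with THBD (0.804 and 0.203), 0.626 with SERPINE2 (0.642 and 0.632) and 0.606 with TFPI (0.712 and 0.436). F3 was at -0.227. Markers of smooth muscle and pericytes, led by TAGLN and highest in 537 (2627 CPM), were most like PROCR (0.649, with 0.703 in the later and 0.390 in the earlier year) and PLAT (0.615, with 0.734 and 0.262). Macrophage markers, led by C1QA and highest in 4x0430 (818 CPM), were most like PLAUR (0.567, with 0.644 and 0.566).

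The remaining lists were as follows. Neutrophil markers, with 7 of 8 found and S100A9 the most abundant, were highest in 338 (697 CPM) and second highest in 529 (301 CPM), and were most like PLAUR (0.583, with 0.658 in the later and 0.490 in the earlier year). Mesothelial markers, with 7 of 8 found and KRT19 the most abundant, were highest in Little_R (182 CPM) and most like PLAT (0.538, with 0.695 and 0.238). Adipocyte markers, led by FABP4, summed to 299 to 1720 CPM, and Schwann cell markers, led by S100B, were highest in 554 (481 CPM). Atrial markers, led by NPPA, had a median of 472 CPM and reached 46831 CPM in 549, with SERPINE2 at a rho of 0.471 (0.305 in the later and 0.637 in the earlier year) and TFPI2 at 0.458 (0.679 and 0.145). Platelet markers were near 0: their 6 genes summed to 0.413 to 12.4 CPM, ITGA2B was the most abundant, and PF4 and GP1BA stayed under 1 CPM in every animal. No marker of the 12 lists was at 0 in all animals.

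RNA quality and depth moved with some genes as well. THBD had a rho of 0.497 with RIN (0.524 in the later and 0.483 in the earlier year), and the other 8 genes lay between -0.131 (F3) and 0.244 (PLAT). The mitochondrial share had opposite signs in the later and the earlier year for all genes but THBD (0.197 and 0.0417) and F3 (-0.110 and -0.0417). Its rho was 0.536 and -0.475 with PROCR, 0.530 and -0.306 with TFPI, 0.348 and -0.681 with PLAUR, and 0.460 and -0.485 with SERPINE2. The orthologous exon total had a rho of -0.593 with TFPI, -0.581 with PLAU, -0.411 with PROCR, -0.3601 with PLAUR, -0.358 with SERPINE2 and -0.348 with PLAT. In the later year these 6 values ran from -0.688 to -0.469, while in the earlier year TFPI was at -0.431 and PLAU at -0.395 and the other 4 were above 0 (0.0123 to 0.191). That total is also the divisor of each level, so these values are not independent of it. Their part in the likeness of the genes was not tested.

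The rest of the pathway was followed with fixed lists. These were also chosen with earlier results of these data known, so their shares with a dispersion above 0 are descriptions. Among 29 other fibrinolysis genes, all were found and 18 passed the expression filter. Of these, 15 (83.3%) had a dispersion above 0, against 44.4% of all genes, and their median was 0.447. The 3 with the highest mean level were A2M, a broad protease inhibitor (667 ± 227 CPM, SD, n = 38), ANXA2, a plasminogen-binding annexin (344 ± 168 CPM), and LRP1, an uptake receptor for protease complexes (343 ± 289.6 CPM). The plasminogen gene itself, PLG, singled out after its values were seen, had a median of 0 CPM and a highest level of 1.07 CPM, in 529.

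Between extraction years, 2 of 21 fibrinolysis genes tested passed by edgeR at an adjusted p under 0.05, a smaller share than the 16.1% of all genes. Both were higher in the later year, and both had a median under 1 CPM over all animals, near the floor of these counts. With no filter on low counts, 84.4% of the genes called were higher in the later year, against 70.0% in the main fit. The part of this in genes at such low levels was not tested. KLKB1, which encodes plasma prekallikrein, ran from 0.0296 through a median of 0.122 to 0.314 CPM in the earlier year and from 0.0484 through 0.276 to 2.17 CPM in the later one, with 19 of 21 animals above the earlier median. Its log2 fold change was 1.74 ± 0.39 (SE), with an adjusted p of 0.00201 by edgeR. CPB1, a carboxypeptidase, had a log2 fold change of 1.73 ± 0.57 (adjusted p of 0.0331 by edgeR), with 14 of 21 animals above the earlier median. It did not pass without 623, 95A014 or Little_R (adjusted p of 0.0512, 0.0533 and 0.193 by edgeR), and without Little_R, its highest animal at 9.3004 CPM, the log2 fold change was 1.06. In the 21 Yerkes animals alone neither gene passed, with log2 fold changes of 1.402 for KLKB1 and 1.02 for CPB1 (adjusted p of 0.201 and 0.536 by edgeR).

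Among 44 other coagulation genes, 43 were found and 29 passed the filter. Their median dispersion was 0.621, and 21 (72.4%) lay above 0, against the same 44.4%. The 3 with the highest mean level were TGM2, a transglutaminase (1147 ± 507 CPM, SD, n = 38), VWF, the von Willebrand factor (839 ± 400.1 CPM), and MFGE8, a protein that binds phosphatidylserine (441 ± 153 CPM). Of the 43 genes, 15 had a median under 1 CPM, among them F2, F7, F9, FGA, FGB and FGG, a group singled out after its values were seen, and their highest single value was 6.91 CPM, for F2.

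Of 33 coagulation genes tested between years, 5 passed by edgeR at an adjusted p under 0.05, a share close to the 16.1% of all genes. ADAMTS13, the protease that trims von Willebrand factor, was higher in the later year. It ran from 3.86 through a median of 10.8 to 16.7 CPM in the earlier year and from 6.46 through 38.4 to 91.02 CPM in the later one, and 16 of 21 animals lay above the highest of the earlier year. Its log2 fold change was 1.82 ± 0.26 (SE), with an adjusted p of 1.12e-05 by edgeR. PROC, the protein C gene, was also higher, by 2.72 ± 0.47 (adjusted p of 9.24e-05 by edgeR), at medians of 0.157 and 1.05 CPM and with 19 of 21 animals above the earlier median. Its lowest level in the earlier year was 0 CPM, so it too lies near the floor. The other 3 were lower in the later year. F13A1, a subunit of the factor that crosslinks fibrin, had a log2 fold change of -1.49 ± 0.37 (adjusted p of 0.00442 by edgeR), with 16 of 21 animals below the earlier median. Without 4x0430, the highest animal for F13A1 (149 CPM) and for macrophage markers, its log2 fold change was -1.04. TGM2 was at -0.61 ± 0.18 (adjusted p of 0.01503 by edgeR), with 17 of 21 below, and VKORC1L1, a vitamin K reductase, at -0.48 ± 0.14 (adjusted p of 0.0162 by edgeR), with 16 of 21 below. None of these 3 passed in the 21 Yerkes animals alone, where the log2 fold changes were -1.30, -0.49 and -0.36 (adjusted p of 0.136, 0.339 and 0.384 by edgeR). Marker sums also differed between years. In the earlier and the later year the median was 183 and 84.4 CPM for macrophage, 806 and 253 CPM for atrial and 481 and 748 CPM for adipocyte markers. For cardiomyocyte markers it was 85063 and 83745 CPM. The part of these markers in the differences between years was not tested.

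For sex, RIN and age, 0 genes of either list passed by edgeR at an adjusted p under 0.05. At an unadjusted p under 0.05 there were 1 of 21 fibrinolysis and 4 of 33 coagulation genes for sex, where 8.42% of all genes were. For RIN there were 3 of 21 and 9 of 37 (13.8% of all genes), and for age 2 of 21 and 6 of 37 (7.41% of all genes). DESeq2 called 0 of either list for RIN and age and, for sex, 0 fibrinolysis genes and 1 coagulation gene, F10, the factor X gene (adjusted p of 0.0882 by edgeR).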

How the data were processed

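The authors deposited raw counts: reads aligned with STAR 2.6.1b to Pan_tro_3.0 and counted per gene by STAR, and counts over orthologous exons made with featureCounts 1.6.3 per the file headers. Both tables were used for the 38 libraries of the series. Unused were 89 columns: 49 of human libraries, 38 of normalized values, and 1 in each count table that matches no sample. Symbols were found for 18040 of 31373 genes. CPM used orthologous exon totals, with a pseudocount of 0.5 on the log2 scale, and genes needed 6 CPM in 1 animal. Dispersion was the natural log of the negative binomial overdispersion minus a LOESS trend (degree 1, span 0.75), with jackknife errors. edgeR 4.0.16 (TMM, filterByExpr, quasi-likelihood, R 4.3.3) fitted year with sex, sex with year, and RIN or age with both, with Benjamini-Hochberg adjustment over all genes tested and a threshold of 0.05. DESeq2 1.42.0, no filter, other library sizes, another LOESS span, subsets of animals and each animal left out were alternatives. Code was tested on simulated data. Python 3.11.15 used numpy 2.4.6, pandas 2.3.3, scipy 1.17.1, statsmodels 0.14.6 and matplotlib 3.10.9. Year, sex, RIN and age came from the sample table of the study.

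Named were the 9 genes, the 2 most alike genes of each by Spearman's rho, pathway genes past a threshold (at most 5 a direction), the 3 highest by mean in each pathway list, and the most abundant marker of each list. Some results that the rule would name are not given. The genes and lists were chosen with earlier results of these data known.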

Additional observations from a re-analysis of the deposited data

How the results depend on the processing

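The direction and the side of the threshold were kept in 320 of 365 single gene fits under other settings and in 918 of 950 fits that left out 1 animal. Mean levels moved by less than 1 SD in 36 of 36 recomputed values. The SD between animals is large, so this limit does not show that the means were stable. With the TMM total as divisor the mean of every gene of the list was lower. It was 27.9 CPM for PLAU, 35.8 CPM for SERPINE2 and 9.66 CPM for PROCR, against 51.5, 69.5 and 18.5 CPM. Dispersions moved by less than their jackknife error in 82 of 90 values, and values of rho by less than theirs in 254 of 324. The sign turned in 35 fits under other settings and in 28 with 1 animal left out, none of them past the threshold, and the cause was not tested.

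For extraction year, the log2 fold change turned with RIN as a covariate for SERPINE2 (-0.0094), in Yerkes animals alone for F3 (0.15) and THBD (-0.23), without 529 for TFPI (-0.11) and THBD (-0.029), without 529 and 4x0025 for TFPI (-0.084) and THBD (-0.064), and without 537 and Little_R for SERPINE2 (-0.40), TFPI (-0.054) and THBD (-0.056). Without 529 and 570, chosen after seeing the data, it turned for TFPI (-0.079) and THBD (-0.036). TFPI2 passed under each of the 3 settings that leave out 529, at adjusted p-values of 0.00705, 0.00903 and 0.0218 by edgeR, and DESeq2 gave it no adjusted p for year or sex. The 21 Yerkes animals gave 3.3e+02 genes called (2.08% of 16028 tested) against 2536, and there CPB1, KLKB1, F13A1, VKORC1L1 and TGM2 no longer passed (log2 fold changes of 1.02, 1.402, -1.30, -0.36 and -0.49), in a fit with fewer animals. VKORC1L1 also did not pass without 529 and 4x0025, nor CPB1 without 537 and Little_R. Without a filter on low counts the median log2 fold change of all genes moved from -0.01 to 0.14.

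For sex, the sign turned in animals of the earlier year for PLAU (-0.10), PLAT (-0.24) and TFPI2 (-1.01), and for F3 in animals of the later year (0.29), with DESeq2 (0.0058) and with the orthologous exon total (0.0299). Without 529 it turned for PLAU (-0.026), PLAT (-0.19), PLAUR (-0.24) and TFPI2 (-0.28), and without 529 and 4x0025 for PLAT (-0.17), PLAUR (-0.083) and TFPI2 (-0.27). Against 34 genes called for sex, DESeq2 called 86, the fit with no filter 53 and the later year alone 20.

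For RIN, the slope turned in the earlier year for PLAU (-0.18), PLAT (-0.049), PLAUR (-0.12), SERPINE2 (-0.52) and TFPI (-0.033), and without 537 and Little_R for PLAU (-0.035). Against 0 genes called for RIN, DESeq2 called 168, and no filter, the orthologous exon total and the earlier year alone gave 2 each. For age, the slope turned in the earlier year for PLAU (0.0037) and TFPI (0.011) and in the later year for TFPI2 (0.00092) and THBD (0.0195), and DESeq2 called 2 genes against 0. The median dispersion of the 9 genes was 0.671 in the earlier year, and the median rho of the pairs was 0.612 in the later and 0.163 in the earlier year.

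Leaving out each animal in turn, an alternative chosen after seeing the data for the year and sex fits, gave year log2 fold changes of -0.28 (without 537) to 0.35 for SERPINE2, -0.11 to 0.11 for TFPI, -0.071 to 0.25 for THBD and -1.26 to -0.24 for TFPI2. It gave sex differences of -0.36 to 0.10 for F3, -0.19 to 0.20 for PLAT, -0.026 to 0.36 for PLAU, -0.24 to 0.75 for PLAUR and -0.28 to 0.68 for TFPI2. Genes called ranged from 2145 to 2930 for year and from 23 to 52 for sex. No paired analysis was possible because the labels pair no animals between years or sexes, and no block for relatives was fitted. Among the 9 genes, depth limits F3 most, at 34 counts in 1 library. Of the pathway genes called between years, KLKB1, CPB1 and PROC had medians under 1 CPM over all animals.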

Other observations

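THBS1, which encodes a matrix protein that binds plasminogen, was singled out from the fibrinolysis list after its values were seen. It was highest in 529 at 1180 CPM, against a median of 30.7 CPM, with a dispersion of 2.79 ± 0.365 (jackknife SE). Between extraction years it did not pass, with an adjusted p of 0.224 by edgeR.

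Whether sex, RIN or age acted differently in both extraction years was fitted with interaction terms, an alternative chosen after seeing the data. By edgeR 0 genes passed at an adjusted p under 0.05 for any of these terms, against 721 (4.43%), 1083 (6.40%) and 1239 genes (7.28%) at an unadjusted p under 0.05. Of the 9 genes, 1 was at an unadjusted p under 0.05 for the sex term (TFPI2), 2 for the RIN term (SERPINE2 and TFPI2, with opposite signs) and 0 for the age term. The 2 animals with the highest TFPI2 are 570, a female of the earlier year, and 529, a male of the later year, and the terms without them were not fitted.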
